A study of Homo sapiens with 28 samples.

Results

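The RUNX family was followed here as 4 genes of the 26346 counted in each library: the transcription factor genes RUNX1, RUNX2 and RUNX3, and CBFB, the gene of their shared partner. They were chosen by name as a family, because the level of RUNX2 across the groups of these same libraries was already known to differ widely. The levels of the 4 genes are therefore given as a description, with no test.

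RUNX proteins bind DNA through a Runt domain, which recognises the word TGTGGT and its variant with TGCGGT. CBFB does not touch DNA itself but holds the Runt domain in its binding form and protects the RUNX protein from degradation. RUNX1 is best known as a regulator of blood formation, RUNX2 as the master regulator of bone and cartilage cells, and RUNX3 for roles in T cells, sensory neurons and epithelia. Each RUNX gene is transcribed from a distal and a proximal promoter, and gene counts do not tell these apart.

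Polyadenylated RNA was sequenced from AN3CA, a human endometrial carcinoma cell line, in 28 libraries of 13 groups. All groups share the AN3CA background and differ in the introduced vector. The 7 ARID1A groups, with 2 libraries each, expressed wild-type ARID1A (ARID1A WT), DBDmut with a changed ARID domain, the truncations CBR and delIDR1, a hybrid that carries a disordered stretch of DDX4 (DDX4 hybrid), an AQG scramble mutant (AQGscram) and a mutant labelled 42YS. The 5 ARID1B groups, also with 2 libraries each, expressed wild-type ARID1B (ARID1B WT) or the deletion mutants M2 (S320_G327del), A457_G461del, Block13del and Block9del. The empty vector had 4 libraries. ARID1A and ARID1B are alternative subunits of the canonical BAF chromatin remodelling complex. The labels spell 42YS in different ways, and its exact change is not stated here. They also do not say whether replicates were separate cultures or whether a group was a clone or a pool, so p-values reflect just the spread among these libraries, and that may be technical.

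Libraries held 16.6 to 27.9 M reads on genes, with a median of 22.0 M. Levels are given as counts per M reads (CPM) after scaling between libraries, where 3 reads stood at 0.106 to 0.196 CPM. ARID1A RNA, which includes the cell's own transcript, was 374 to 1017 CPM in the ARID1A groups other than AQGscram, 247 CPM in AQGscram and 288 CPM with the empty vector. ARID1B RNA was 344 to 4250.4 CPM in the ARID1B groups and 98 CPM with the empty vector. The share of stranded reads that lay opposite to their gene split the libraries into 3 sets not given by the labels. Set 1, at 84.54 to 87.75%, held empty vector replicates 1 and 2 with DBDmut, CBR, ARID1A WT and delIDR1. Set 2, at 98.13 to 98.6%, held empty vector replicates 3 and 4 with M2, ARID1B WT and the DDX4 hybrid. Set 3, at 96.74 to 97.85%, held the other 5 constructs and lacked an empty vector. Of 10 markers of endometrial epithelium, 4 to 6 reached 1 CPM in every group, among them PAX2, HOXA10, HOXA11 and KRT18 with ARID1A WT, ARID1B WT and the empty vector, while the hormone receptor genes ESR1 and PGR had no read in those 3 groups. The epithelial markers EPCAM and PAX8 stayed under 1 CPM in every group. Their highest group means were 0.535 CPM (EPCAM in AQGscram) and 0.205 CPM (PAX8 in ARID1A WT), and PAX8 had no empty vector read. Of 5 osteoblast markers, SP7, BGLAP, IBSP and DMP1 stayed at or under 0.27 CPM in every library, while ALPL had 1.27 to 1.52 CPM with ARID1A WT and over 1 CPM with CBR and delIDR1, against 0.227 to 0.405 CPM with the empty vector.

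The start regions of the RUNX genes are shown because the family recognises a short DNA word that can be looked for in them. RefSeq start windows of 300 bases (build GRCh38.p14, 250 bases before the start and 50 after) were found for RUNX1, RUNX2 and RUNX3. CBFB had none in the table. The windows below run 5′ to 3′ on the strand of the gene, and capitals mark the word TGTGGT and the variant TGCGGT, read on either strand (ACCACA on the other strand for the word, and ACCGCA for the variant).
RUNX2 distal start, chr6:45328080-45328379, plus strand: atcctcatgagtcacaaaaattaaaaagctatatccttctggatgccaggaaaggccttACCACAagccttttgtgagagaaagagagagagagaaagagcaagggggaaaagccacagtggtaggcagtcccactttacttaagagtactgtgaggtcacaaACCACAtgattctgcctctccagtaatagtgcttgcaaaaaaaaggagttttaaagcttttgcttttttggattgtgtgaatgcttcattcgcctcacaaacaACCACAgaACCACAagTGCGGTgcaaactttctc
RUNX2 proximal start, chr6:45422025-45422324, plus strand: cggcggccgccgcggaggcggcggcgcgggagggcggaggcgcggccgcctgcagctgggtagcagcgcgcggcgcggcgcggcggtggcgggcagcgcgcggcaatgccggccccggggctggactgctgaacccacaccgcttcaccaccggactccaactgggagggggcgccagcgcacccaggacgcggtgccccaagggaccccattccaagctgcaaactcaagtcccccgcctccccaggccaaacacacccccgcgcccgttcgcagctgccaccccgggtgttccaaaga
RUNX3 distal start, chr1:24964961-24965260, minus strand: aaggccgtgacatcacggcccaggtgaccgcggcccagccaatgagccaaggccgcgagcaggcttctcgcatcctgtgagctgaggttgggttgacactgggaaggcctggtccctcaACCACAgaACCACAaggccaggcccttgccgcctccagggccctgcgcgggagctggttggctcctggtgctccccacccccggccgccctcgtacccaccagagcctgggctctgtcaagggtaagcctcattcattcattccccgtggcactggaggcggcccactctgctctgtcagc

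The RUNX2 distal window held 4 copies of ACCACA and 1 of TGCGGT, with a GC content of 42.7%. The RUNX2 proximal window held no match, at 76.0% GC. The RUNX3 distal window held 2 copies of ACCACA a few bases apart, while the RUNX3 proximal window and the single RUNX1 window used, on chromosome 21, held none; its other start was not analysed here. Of 35116 RefSeq start windows of the same length, 13.1% held the word TGTGGT on either strand at least once and 0.0114% held it at least 4 times. The variant TGCGGT on either strand was present in 7.29% of them. The median GC content of all windows was 58.7%. A match of letters is a description and not a binding site.

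RUNX2 was silent with the empty vector and was read in every construct group. The 2 ARID1A WT libraries had 15.6 and 18.6 CPM (267 and 398 reads), and the 4 empty vector libraries had 0 reads each, which allows up to 0.135 to 0.196 CPM per library. Against 3 reads over the whole empty vector group, the ARID1A WT level was at least 447-fold higher. The ARID1B WT libraries had 9.07 and 9.44 CPM (165 and 200 reads), at least 239-fold higher than the empty vector. Each of the 24 construct libraries had at least 2 RUNX2 reads, but both Block9del libraries and 42YS replicate 2, with 2 reads each, lay below what 0 reads allow in the empty vector. Of all 14220 tested genes, 24.1% had ARID1A WT libraries wholly above the empty vector and 22.1% had ARID1B WT libraries there. The share was 28.2% with CBR, 26.0% with delIDR1, 20.2% with DBDmut, 24.6% with the DDX4 hybrid, 14.4% with AQGscram and 21.1% with 42YS. It was 25.3% with M2, 23.7% with A457_G461del, 22.2% with Block13del and 21.4% with Block9del. RUNX2 is among the genes that chose the family, so nothing is read from this count.

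**Figure D1:**
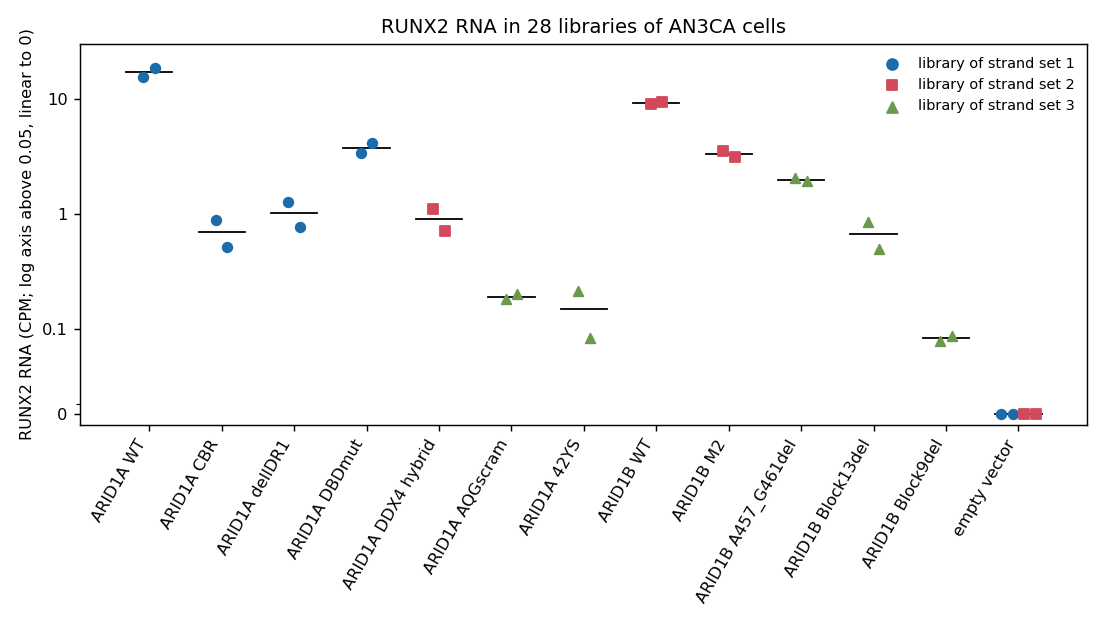
RUNX2 RNA in each of 28 libraries, in CPM on a log axis that is linear near 0, with points coloured and shaped by strand set and a bar at the group mean. ARID1A WT stood highest at 15.6 and 18.6 CPM, ARID1B WT followed at 9.07 and 9.44 CPM, and the 4 empty vector libraries were at 0.

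Mutants of ARID1A held far less RUNX2 RNA than ARID1A WT. DBDmut came closest, with 3.36 and 4.15 CPM, against 15.6 and 18.6 CPM with ARID1A WT (log2 fold change -2.19 ± 0.228, standard error). The truncation delIDR1 had 1.27 and 0.764 CPM (-4.07 ± 0.264 against ARID1A WT) and CBR had 0.88 and 0.513 CPM (-4.60 ± 0.279 against ARID1A WT). Each of these 3 mutants lay wholly below ARID1A WT in the same strand set, as did 27.0% of tested genes for DBDmut, 43.5% for delIDR1 and 42.8% for CBR. The DDX4 hybrid, of strand set 2, had 1.10 and 0.703 CPM. AQGscram had 0.181 and 0.199 CPM and 42YS had 0.212 and 0.0824 CPM, on 9 and 7 reads in all. The difference between 42YS and AQGscram was smaller than its error (-0.37 ± 0.629), with overlapping libraries.

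Against the empty vector the same mutants gave lower bounds, which take the construct's reads as counted and leave out their counting error. These were at least 97.3-fold higher for DBDmut, 26.3-fold for delIDR1, 23.2-fold for the DDX4 hybrid, 18.1-fold for CBR, 4.92-fold for AQGscram and 3.78-fold for 42YS. Libraries of AQGscram and 42YS lay at levels that 0 to a few reads can give, so their order cannot be read at this depth.

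Mutants of ARID1B formed a ladder of RUNX2 levels below ARID1B WT. M2 had 3.48 and 3.12 CPM, against 9.07 and 9.44 CPM with ARID1B WT (-1.49 ± 0.23), and lay wholly below it, as did 33.6% of tested genes. A457_G461del had 2.04 and 1.92 CPM, Block13del 0.839 and 0.498 CPM, and Block9del 0.0775 and 0.0869 CPM. These 3 deletions share strand set 3 and did not overlap. A457_G461del exceeded Block13del by 1.59 ± 0.317 on the log2 scale and Block9del by 4.50 ± 0.454, and Block13del exceeded Block9del by 2.91 ± 0.559, with 4 reads in all in Block9del. Of all tested genes, 28.8%, 34.5% and 20.8% lay wholly higher in these 3 comparisons. Without Block13del replicate 2 the first difference was 1.23, and without Block13del replicate 1 the last was 2.52. The lower bounds against the empty vector were 85.6-fold for M2, 51.1-fold for A457_G461del, 16.8-fold for Block13del and 2.12-fold for Block9del. The last rests on 4 reads, whose counting error it leaves out.

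In the order of group means, ARID1A WT and ARID1B WT stood apart from their neighbours and from each other, without a test since they belong to different strand sets. DBDmut and M2 overlapped, at 3.76 ± 0.559 and 3.30 ± 0.256 CPM (SD, n = 2 each). The next group, A457_G461del at 1.98 ± 0.0837 CPM, overlapped neither neighbour. Below it delIDR1, the DDX4 hybrid, CBR and Block13del overlapped along a range of 0.498 to 1.27 CPM. AQGscram, 42YS and Block9del followed, with overlap along the chain, and the empty vector came last.

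RNA of the introduced gene varied as well, and its level is therefore set beside RUNX2. That level includes the cell's own transcript, and the percents below are not corrected for it or for the length of the construct. The empty vector had 288 CPM of ARID1A RNA, against 733 CPM with ARID1A WT and 374 CPM in 42YS. It had 98 CPM of ARID1B RNA, against 3597 CPM with ARID1B WT. In percent of the matching wild type, CBR had 139% of the ARID1A RNA and 4.06% of the RUNX2 RNA of ARID1A WT. DBDmut had 90.8% of the ARID1A RNA and 21.9% of the RUNX2 RNA, and delIDR1 had 80.4% and 5.92% in the same order. The DDX4 hybrid had 71.3% of the ARID1A RNA with 5.27% of the RUNX2 RNA, 42YS 51.0% with 0.86%, and AQGscram 33.7% with 1.11%. ARID1A RNA in AQGscram was not called different from the empty vector (247 against 288 CPM, log2 fold change -0.22 ± 0.0864, adjusted p = 0.0645 in the edgeR quasi-likelihood test). Among ARID1B mutants, M2 had 118% of the ARID1B RNA and 35.6% of the RUNX2 RNA of ARID1B WT. A457_G461del had 62.2% with 21.4%, Block13del 24.5% with 7.23% and Block9del 9.55% with 0.889%. Among the 3 set 3 deletions of ARID1B, RUNX2 and ARID1B RNA thus had the same order, whereas CBR had more ARID1A RNA than ARID1A WT and less RUNX2. ARID1B RNA in M2 was not called different from ARID1B WT (0.24 ± 0.0877, adjusted p = 0.0746 in the edgeR quasi-likelihood test). The DDX4 hybrid, AQGscram, 42YS and the 3 deletions are in another strand set than their wild type, which cannot be told apart from the construct here. Protein was not measured in these files, and the part of the introduced RNA in the RUNX2 levels was not tested.

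**Figure D2:**
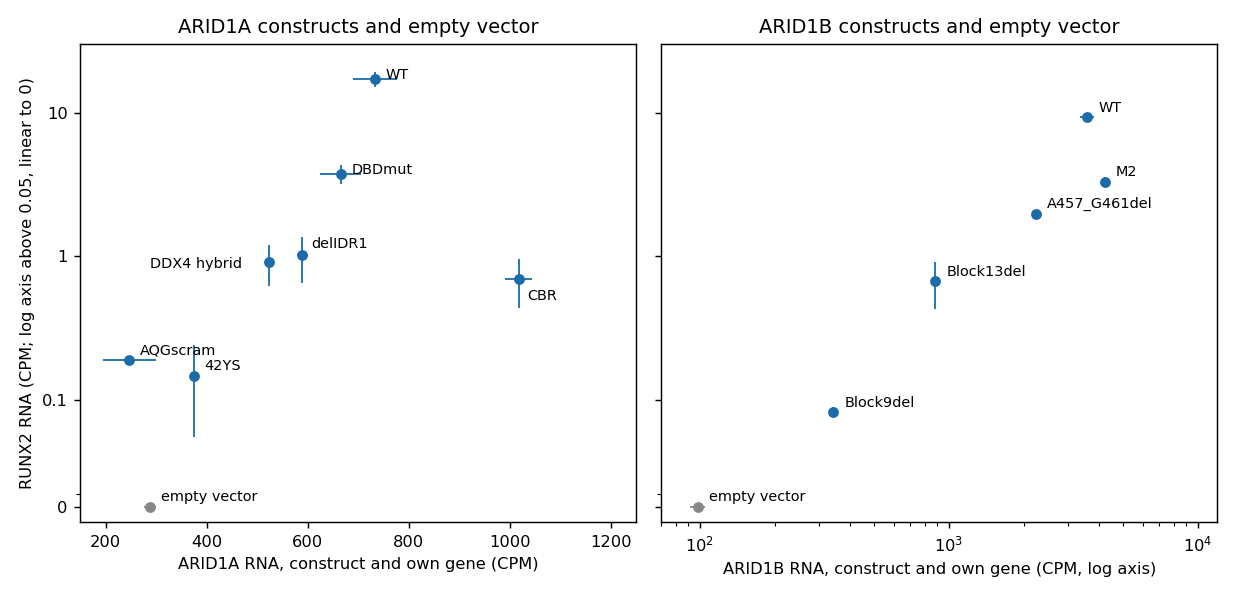
Group means of RUNX2 RNA (CPM, log axis above 0.05 and linear to 0) against RNA of the introduced gene, with the cell's own transcript included. ARID1A groups and the empty vector are in the left panel. ARID1B groups and the empty vector are in the right panel (ARID1B on a log axis). Lines are 1 SD. CBR lies at the far right of the ARID1A panel with 1017 CPM of ARID1A and 0.696 CPM of RUNX2, and M2 at the far right of the ARID1B panel with 4250.4 CPM of ARID1B and 3.30 CPM of RUNX2.

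RUNX3 was the RUNX gene read in every library, at low levels. The CBR libraries had 1.94 and 2.33 CPM, the DDX4 hybrid 1.94 and 2.15 CPM and delIDR1 2.05 and 1.71 CPM, against 1.31, 1.48, 1.31 and 1.62 CPM with the empty vector. These 3 groups lay wholly above the empty vector, as did 28.2%, 24.6% and 26.0% of tested genes in the same comparisons. The log2 fold changes were 0.57 ± 0.24 for CBR, 0.51 ± 0.235 for the DDX4 hybrid and 0.39 ± 0.244 for delIDR1. Block13del had 0.787 and 0.581 CPM and A457_G461del had 0.856 and 0.783 CPM, both wholly below the empty vector (-1.08 ± 0.293 and -0.80 ± 0.274), as were 20.3% and 21.4% of tested genes. Block9del, AQGscram, 42YS and DBDmut lay wholly below it by less (-0.57 ± 0.268, -0.41 ± 0.264, -0.37 ± 0.262 and -0.28 ± 0.265), as did 21.9%, 13.2%, 20.4% and 19.9% of tested genes. Apart from DBDmut, the groups wholly below the empty vector are those of strand set 3. That set lacks an empty vector, so set and construct cannot be told apart there.

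ARID1A WT replicates disagreed in RUNX3, with 0.41 and 1.36 CPM on 7 and 29 reads. CBR and delIDR1 exceeded both of them, as 39.5% and 38.0% of tested genes did, with log2 differences from ARID1A WT of 1.21 ± 0.302 and 1.03 ± 0.305. Without ARID1A WT replicate 1 these differences were 0.65 and 0.47, and without replicate 2 they were 2.36 and 2.18. ARID1B WT had 1.21 and 1.32 CPM of RUNX3 and overlapped the empty vector.

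RUNX1 was close to silent throughout, at 0 to 0.861 CPM, so that no library had more than 19 reads. DBDmut had the highest construct mean, 0.545 CPM, against 0.516 CPM with the empty vector. The empty vector pairs differed: replicates 3 and 4 had 0.262 and 0.223 CPM, against 0.861 and 0.719 CPM in replicates 1 and 2 (log2 fold change -1.69 ± 0.585). Most construct groups overlapped the 4 empty vector libraries, and AQGscram, A457_G461del and Block9del lay wholly below it (0.181 and 0.199, 0.122 and 0.196, and 0.0775 and 0.0869 CPM). Of all tested genes, 13.2%, 21.4% and 21.9% did so in the same comparisons. AQGscram, A457_G461del and Block9del belong to strand set 3, which lacks an empty vector, so set and construct cannot be told apart. Against empty vector replicates 1 and 2, the pair of strand set 1, the log2 fold changes were -1.01 ± 0.499 for ARID1A WT and -2.74 ± 0.637 for CBR. They were -1.68 ± 0.533 for delIDR1 and -0.54 ± 0.451 for DBDmut. ARID1B WT had 0.0549 and 0.283 CPM, a log2 fold change of -1.59 ± 0.722 against the empty vector and of -0.43 ± 0.834 against empty vector replicates 3 and 4, its own strand set. Against that same pair the values ran the other way for the DDX4 hybrid (0.19 ± 0.709) and M2 (0.69 ± 0.671).

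CBFB was read strongly in all libraries, at 59.7 to 118 CPM, with RUNX2 present or absent. ARID1A WT had 84.4 and 79.1 CPM and ARID1B WT 66.5 and 59.7 CPM, against 117, 109, 72.7 and 72.9 CPM with the empty vector. The empty vector split into its pairs, with replicates 3 and 4 apart from replicates 1 and 2 by a log2 fold change of -0.64 ± 0.0611. The log2 fold change of ARID1A WT was therefore -0.19 ± 0.14 against all 4 empty vector libraries, -0.47 ± 0.06 against its own pair and 0.17 against replicates 3 and 4. ARID1B WT and delIDR1 lay wholly below all 4 empty vector libraries, as did 25.1% and 28.8% of tested genes. For ARID1B WT the log2 fold change was -0.56 ± 0.142 against all 4 and -0.21 ± 0.0637 against its own pair. Against own pairs the values were -0.58 ± 0.0597 for CBR, -0.68 ± 0.0599 for delIDR1, -0.43 ± 0.0594 for DBDmut, 0.41 ± 0.061 for the DDX4 hybrid and 0.00 ± 0.0622 for M2. Among the set 3 groups, which have no empty vector pair, CBFB ran between 85.6 CPM in AQGscram and 112 CPM in Block13del and Block9del. Between ARID1A mutants and ARID1A WT of set 1 the largest difference was -0.21 ± 0.16, for delIDR1.

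**Figure D3:**
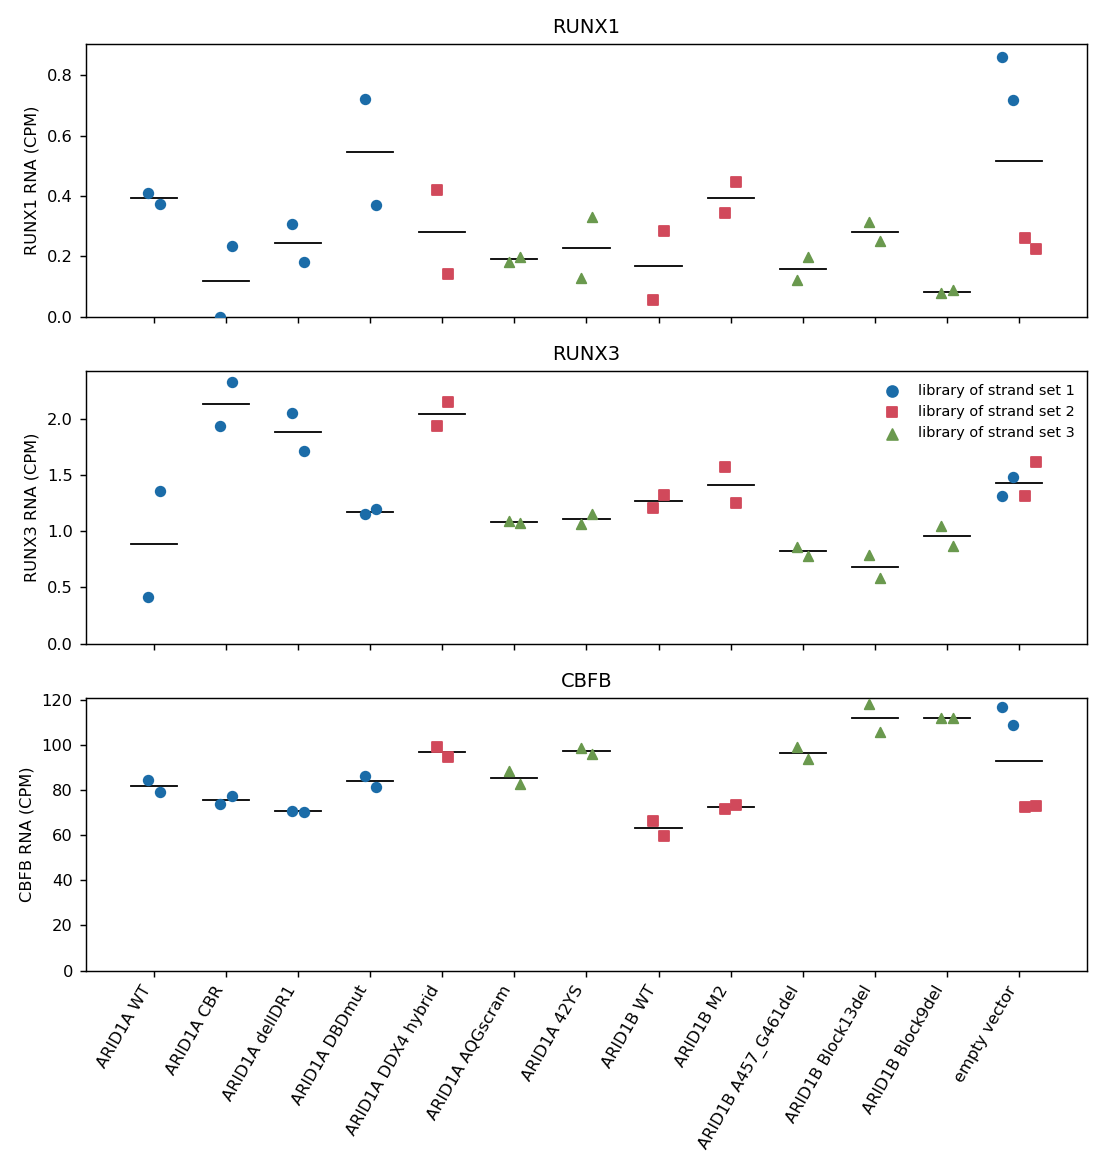
RUNX1, RUNX3 and CBFB RNA in CPM for each of 28 libraries, on linear axes from 0, with colour and shape by strand set and bars at group means. RUNX1 stayed under 0.861 CPM or at it, RUNX3 was highest in CBR and the DDX4 hybrid (up to 2.33 CPM), and CBFB in the empty vector split into replicates 1 and 2 at 109 to 117 CPM and replicates 3 and 4 at 72.7 to 72.9 CPM.

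Scaled by exon length (CPM per kb, with the union of exons in the reference annotation), CBFB was the most abundant member in every group. With ARID1A WT it stood at 19.8 CPM per kb, against 22.5 with the empty vector. RUNX2 stood at 2.09 CPM per kb with ARID1A WT, above RUNX3 at 0.196 and RUNX1 at 0.0252. With the empty vector RUNX3 was the most abundant RUNX gene, at 0.316 CPM per kb, followed by RUNX1 at 0.0332 and RUNX2 at 0. With ARID1B WT the values were 1.13 for RUNX2, 0.28 for RUNX3 and 0.0109 for RUNX1.

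The genes whose group means ran most like RUNX2 over the 13 groups were taken by Pearson correlation of log2(mean CPM + 0.5) among 10769 genes with at least 5 CPM in a group. They were PLAU, the urokinase gene (r = 0.975), HPD, a gene of tyrosine breakdown (r = 0.973), MEGF9 (r = 0.966), the sorting receptor gene SORT1 (r = 0.964) and the kinase gene PLK2 (r = 0.964). These correlations describe 13 group means that share libraries, depth and the same constructs, and they say nothing of shared control. PLAU averaged 43.7 ± 0.222 CPM with ARID1A WT, 21.3 ± 1.12 with ARID1B WT and 0.766 ± 0.283 with the empty vector (SD). HPD averaged 51.5 CPM with ARID1A WT, 37.3 with ARID1B WT and 0.392 with the empty vector. MEGF9 and SORT1 ran over a narrower range, 54.5 against 19.4 CPM and 296 against 153 CPM in ARID1A WT and the empty vector.

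For RUNX3 the most alike profiles were those of SH2B2 (r = 0.923), TDRD7 (0.896), WRNIP1 (0.893), NECAB3 (0.89) and KNDC1 (0.889), each highest in CBR. For CBFB they were FBXO45 (0.961), NAF1 (0.96), TNPO2 (0.959), CHML (0.953) and NAA50 (0.95). RUNX1 had no group mean at 1 CPM and was not compared in this way.

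**Figure D4:**
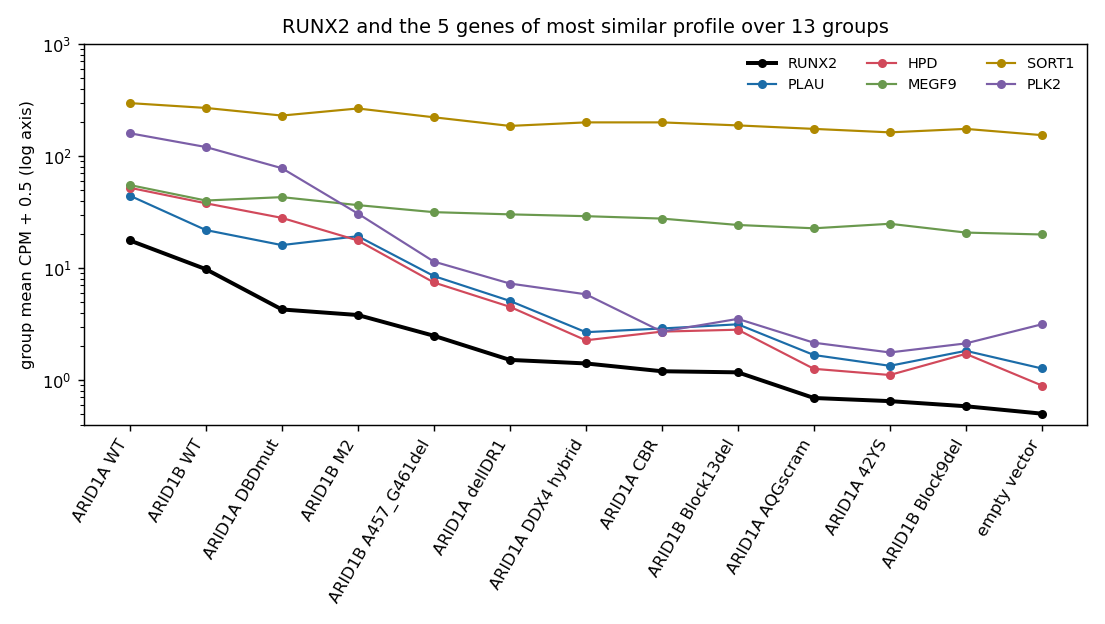
Group mean CPM + 0.5 on a log axis for RUNX2 and the 5 genes of most similar profile, with the groups ordered by RUNX2 level and the empty vector last. PLAU, HPD and PLK2 span more than a decade between ARID1A WT and the empty vector, while SORT1 runs only between 296 and 153 CPM.

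Skeletal genes known as RUNX2 targets were a list of 21, of which 9 passed the filter on low counts. The 12 that did not include the defining genes of bone and cartilage: SP7, BGLAP, IBSP, MMP13 and COL10A1 had at most 48 reads each over all 28 libraries. A gene could pass through the group where it is high, so counts over the 9 are not counts over the list. With ARID1A WT, 7 of the 9 were higher than with the empty vector at an adjusted p under 0.05, against 44.5% of all tested genes called in either direction and 21.1% called higher. Adjusted p-values are from the edgeR quasi-likelihood test with Benjamini-Hochberg adjustment over 14220 genes. The median log2 fold change of the 9 was 2.21, also with SOST at its bound, against -0.06 over all tested genes. With ARID1B WT, 4 of the 9 were higher and 1 lower (43.1% of all tested genes called and 19.2% called higher), with a median of 0.36 against -0.07. The count of 5 was 3 without ARID1B WT replicate 2 and 3 in a fit of only the groups compared.

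COL1A1, the main collagen gene of bone and connective tissue, had 88.4 and 90.2 CPM with ARID1A WT, against 0.816, 0.629, 1.18 and 0.39 CPM with the empty vector (6.91 ± 0.159, edgeR adjusted p = 1.24e-17). The ARID1B WT libraries had 25.2 and 29 CPM (5.19 ± 0.168, edgeR adjusted p = 3.76e-15). Both groups lay wholly above the empty vector. Its partner chain COL1A2 was high everywhere and was 0.36 ± 0.0953 higher with ARID1B WT (adjusted p = 0.00531; adjusted p = 0.182 in a fit of only the groups compared). SPP1, the osteopontin gene, had 3.45 and 2.62 CPM with ARID1A WT and 0.714 and 0.614 CPM with ARID1B WT, against 0.045 to 0.111 CPM with the empty vector (5.19 ± 0.353, adjusted p = 3.21e-10, and 3.01 ± 0.457, adjusted p = 2.78e-05).

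SOST, the gene of the bone formation inhibitor sclerostin, was another gene with no empty vector read. It had 1.35 and 0.797 CPM with ARID1A WT, at least 26.9-fold higher, and 16.4 and 16.5 CPM with ARID1B WT, at least 425-fold higher. SOST passed the filter only through groups that express it, so its call, 1 of the 7 with ARID1A WT and of the 4 higher with ARID1B WT, is no support for the list. ALPL, the bone alkaline phosphatase gene, had 1.52 and 1.27 CPM with ARID1A WT, against 0.227 to 0.405 CPM with the empty vector (2.21 ± 0.317, adjusted p = 1.12e-05). ALPL in ARID1B WT overlapped the empty vector (0.275 and 0.425 CPM, 0.25 ± 0.412). PHEX, a phosphate-regulating gene of bone, was higher with ARID1A WT too (2.98 ± 0.549, edgeR adjusted p = 0.000185). So was the growth factor receptor gene FGFR3 (0.50 ± 0.0607, edgeR adjusted p = 1.32e-06). SPP1, PHEX and ALPL averaged 0.0781, 0.0803 and 0.293 CPM with the empty vector, so they too passed the filter only through construct groups. Their calls, and the median of 2.21, which is the value of ALPL, are no support for the list either.

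Connective tissue and epithelial markers both differed along with these genes, and their part in the result was not tested. PDGFRB averaged 33.9 ± 1.94 CPM with ARID1A WT and 19.2 ± 0.265 with ARID1B WT, against 1.61 ± 0.295 CPM with the empty vector, and PDGFRA 2.66 and 1.61 against 0.0589 CPM. The summed level of the 5 fibroblast markers, mostly COL1A2, was 3638 to 3756 CPM with ARID1A WT, 3446 to 3536 with ARID1B WT and 2288 to 3255 with the empty vector. The fibroblast markers DCN and LUM had no read in these 3 groups. Among epithelial markers, KRT18 averaged 46.0 CPM with ARID1A WT and 47.0 with ARID1B WT, against 11.7 CPM with the empty vector, and KRT8 5.25 and 2.52 against 0.514 CPM. EMX2 averaged 0.451 and 0.318 against 2.03 CPM, and PAX2 36.3 and 31.6 against 44.9 CPM. In a cell line a change of cell type share and a change of RNA per cell cannot be told apart from bulk counts.

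Against the empty vector, the mutants differed in how many skeletal genes were called. CBR had 3 higher and 1 lower (53.1% of all tested genes called), delIDR1 4 and 2 (50.1%), DBDmut 4 and 0 (35.1%), the DDX4 hybrid 4 and 1 (39.5%) and AQGscram 2 and 1 (24.7%). M2 had 6 higher and 2 lower (47.3%), A457_G461del 4 and 1 (39.0%), Block13del 3 and 1 (39.3%) and Block9del 1 and 2 (39.0%). The calls of M2 include SPP1, PHEX and SOST, and those of A457_G461del include SPP1 and SOST. Higher calls of SOST, SPP1, PHEX and ALPL in any mutant are no support for the list, since these genes passed the filter only through construct groups. The counts moved both ways with the empty vector libraries and the fit. In fits of only the groups compared AQGscram had 0 calls and Block9del 1. Against empty vector replicates 1 and 2 alone DBDmut had 7, AQGscram 5 and Block9del 5, which also had 5 without empty vector replicate 3. The DDX4 hybrid had 3 without its replicate 2.

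**Figure D5:**
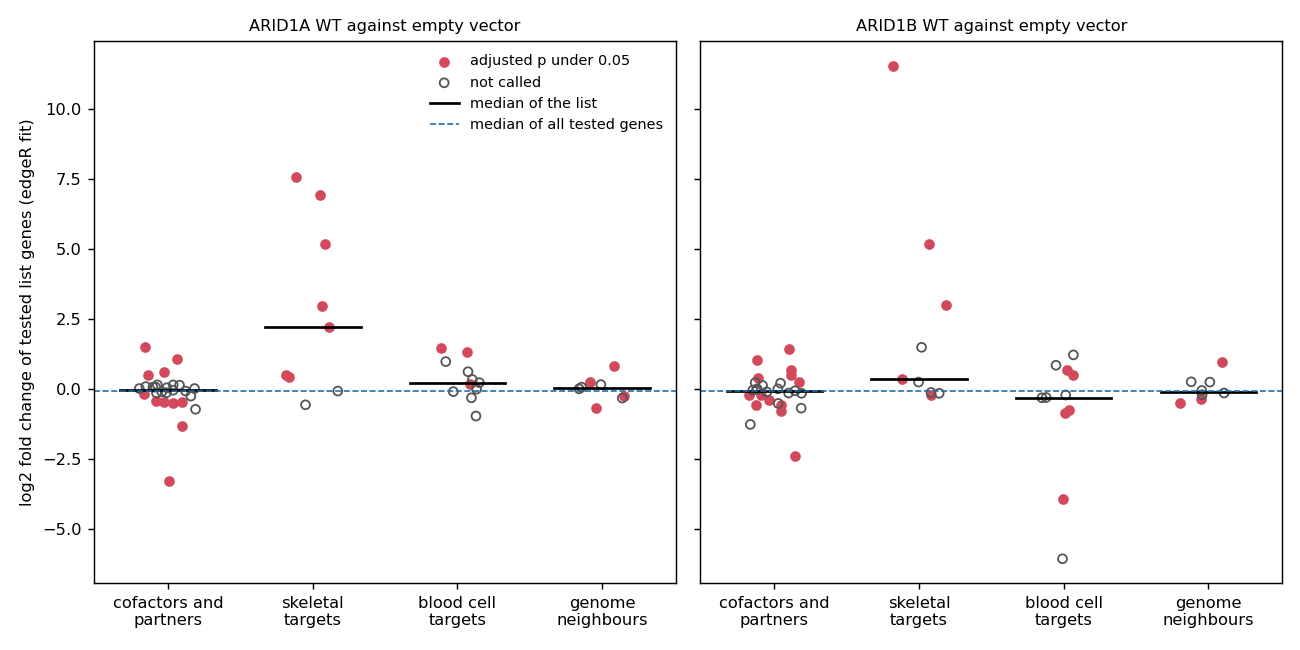
Log2 fold changes of tested list genes in ARID1A WT (left) and ARID1B WT (right) against the empty vector, from the edgeR fit; filled points have an adjusted p under 0.05, bars are list medians and the dashed line is the median of all tested genes. The skeletal list has a median of 2.21 with ARID1A WT and 0.36 with ARID1B WT; its topmost point in each panel is SOST, whose fitted value has no empty vector read behind it and is not a bound.

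Against ARID1A WT, 6 of the 9 were lower and 1 higher with CBR (47.5% of all tested genes called). With delIDR1 6 were lower and 1 higher (40.2% called), and with DBDmut 5 were lower (5.62% called). The CBR and delIDR1 calls include SPP1, PHEX and SOST, and the DBDmut calls include SPP1, SOST and ALPL. These genes passed the filter only through construct groups that express them, so their calls between constructs are no support for the list. The counts of CBR and DBDmut were smaller whenever 1 library of the compared groups was left out. COL1A1 was 18.8 and 17.7 CPM with CBR, 14.0 and 14.1 with delIDR1 and 19.3 and 15.3 with DBDmut, against 88.4 and 90.2 CPM with ARID1A WT. The log2 fold changes were -2.29 ± 0.142, -2.67 ± 0.145 and -2.37 ± 0.143 (edgeR adjusted p = 2.31e-10, 6.36e-11 and 1.77e-09). The libraries of these 3 mutants lay between 14.0 and 19.3 CPM in COL1A1, and their RUNX2 means were 0.696 CPM in CBR, 1.01 CPM in delIDR1 and 3.76 CPM in DBDmut.

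SPP1 was lower than with ARID1A WT in CBR (-4.68 ± 0.411, adjusted p = 3.11e-08), delIDR1 (-3.26 ± 0.344, adjusted p = 5.79e-07) and DBDmut (-2.14 ± 0.307, adjusted p = 0.000118). SOST had no read in CBR, 1 read in delIDR1 and 3 reads in DBDmut, against 40 reads in ARID1A WT. ALPL in CBR (1.19 and 1.4 CPM) and delIDR1 (1.4 and 1.12 CPM) overlapped ARID1A WT, with log2 fold changes of -0.10 ± 0.301 and -0.14 ± 0.301, while DBDmut was lower (0.576 and 0.369 CPM, -1.55 ± 0.35, adjusted p = 0.00931). The ALPL call in DBDmut was lost without DBDmut replicate 2 (-1.26, adjusted p = 0.149) and without ARID1A WT replicate 1 (-1.41, adjusted p = 0.088). FGFR3 was higher than with ARID1A WT in CBR (0.59 ± 0.0691, adjusted p = 1.19e-06) and delIDR1 (0.58 ± 0.069, adjusted p = 2.29e-06).

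Against ARID1B WT, M2 had less COL1A1 (8.60 and 9.48 against 25.2 and 29 CPM, -1.59 ± 0.149, edgeR adjusted p = 5.24e-07). It had more SPP1 (1.99 and 1.38 against 0.714 and 0.614 CPM, 1.35 ± 0.322, adjusted p = 0.00745) and more FGFR3 (0.76 ± 0.071, adjusted p = 4.68e-07), and 14.3% of all tested genes were called. The SPP1 call was lost without M2 replicate 1 (adjusted p = 0.117) and without ARID1B WT replicate 2 (adjusted p = 0.0935). SOST had 9.71 and 9.93 CPM in M2. Among the set 3 deletions, A457_G461del exceeded Block9del in COL1A1 (3.67 and 3.88 against 1.09 and 0.999 CPM, 1.85 ± 0.23, edgeR adjusted p = 1.26e-05), with 12.6% of all tested genes called. It also exceeded Block13del (1.52 ± 0.226, edgeR adjusted p = 0.000293), where 5.48% were called. SOST had 92 reads in A457_G461del, 16 in Block13del and none in Block9del. Between Block13del and Block9del edgeR called 0 of the 9 and 0.471% of all tested genes; 1, SOST, had an unadjusted p under 0.05 and DESeq2 called 1.

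In 42YS no skeletal gene was called. By edgeR 0 of the 9 were called against the empty vector, 0 had an unadjusted p under 0.05 and DESeq2 called 0, where 33.8% of all tested genes were called. Against empty vector replicates 1 and 2 alone 3 were called, and against replicates 3 and 4 alone 1 was. Without empty vector replicate 3 the count was 2, and without replicate 4 it was 1. COL1A1 had 0.765 and 0.947 CPM in 42YS, within the empty vector range, while AQGscram had 7.84 and 8.70 CPM. Set against AQGscram, 42YS was lower in COL1A1 (-3.26 ± 0.22, edgeR adjusted p = 3.63e-08), where 15.8% of all tested genes were called. The 2 AQGscram libraries differed from each other more than those of any other construct (chi-square of 30.4 per degree of freedom over genes), and COL1A1 lay far above the empty vector in both.

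Cofactors and partners of RUNX proteins were a list of 30, of which 27 were tested. With ARID1A WT 4 were higher and 7 lower, and with ARID1B WT 6 were higher and 7 lower, shares of 40.7% and 48.1% called beside 44.5% and 43.1% of all tested genes. Their medians were -0.04 and -0.06, near those of all tested genes (-0.06 and -0.07). In a fit of only the groups compared 7 and 8 were called, and against the own empty vector pair 17 and 20. WWTR1, the gene of the transcriptional coactivator TAZ, had 264 and 262 CPM with ARID1A WT and 196 and 185 CPM with ARID1B WT, against 109.8, 107, 78.6 and 77.7 CPM with the empty vector (1.49 ± 0.102, adjusted p = 3.5e-10, and 1.03 ± 0.103, adjusted p = 1.47e-07). SMAD3, a TGF-beta signal transducer that binds RUNX proteins, was higher with ARID1A WT (92.0 and 96.4 against 42.5 to 46.3 CPM, 1.09 ± 0.0558, adjusted p = 3.93e-12) and with ARID1B WT (59.6 and 66.7 CPM, 0.51 ± 0.057, adjusted p = 5.95e-07).

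RUNX1T1, a corepressor gene known from its fusion with RUNX1 in leukaemia, was lower with ARID1A WT (0.293 and 0.328 against 2.62 to 3.78 CPM, -3.29 ± 0.286, adjusted p = 1.26e-08) and with ARID1B WT (0.879 and 0.33 CPM, -2.39 ± 0.251, adjusted p = 2.78e-07). The haematopoietic factor gene GATA2 was lower in both as well (-0.48 ± 0.0685, adjusted p = 1e-05, and -0.78 ± 0.0696, adjusted p = 2.85e-08). So was SMAD1, a BMP signal transducer (-0.45 ± 0.0656, adjusted p = 1.27e-05, and -0.57 ± 0.066, adjusted p = 1.04e-06). The homeobox gene MSX2 was higher with ARID1B WT (16.0 and 14.6 against 5.39 to 5.96 CPM, 1.44 ± 0.0983, adjusted p = 5.07e-10). The RUNX2 antagonist gene TWIST1 had 12 reads over all 28 libraries, TWIST2 none, and the partner gene ETS1 34.

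Mutants set beside their wild type differed in some of these partners. Against ARID1A WT, 59.3% of the 27 tested were called in CBR, 40.7% in delIDR1 and 3.7% in DBDmut. The shares of all tested genes were 47.5%, 40.2% and 5.62%. For M2 against ARID1B WT the shares were 29.6% of the partners and 14.3% of all tested genes. WWTR1 was lower than with ARID1A WT in CBR (98.3 and 97.3 CPM, -1.43 ± 0.124, edgeR adjusted p = 2.8e-08) and delIDR1 (111 and 115 CPM, -1.22 ± 0.124, edgeR adjusted p = 3.46e-07). DBDmut had 221 and 232 CPM of WWTR1. SMAD3 was lower in CBR (-0.74 ± 0.0661, adjusted p = 3.93e-08) and delIDR1 (-0.69 ± 0.066, adjusted p = 1.8e-07). RUNX1T1 was higher in CBR than with ARID1A WT (1.54 and 1.68 against 0.293 and 0.328 CPM, 2.35 ± 0.33, adjusted p = 1.14e-05), and GATA2 was higher in M2 than with ARID1B WT (0.80 ± 0.078, adjusted p = 8.37e-07).

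Blood cell genes known as RUNX1 or RUNX3 targets were a list of 25, of which 11 were tested. With ARID1A WT 3 were higher, and with ARID1B WT 2 were higher and 3 lower, shares of 27.3% and 45.5% beside 44.5% and 43.1% of all tested genes. With ARID1A WT the count was 1 without ARID1A WT replicate 2 or in a fit of only the groups compared, and 6 with the own empty vector pair. With ARID1B WT it was 3 without either ARID1B WT library and 2 in a fit of only the groups. The cell cycle kinase gene CDK6 had 176 and 171 CPM with ARID1A WT and 104 and 115 CPM with ARID1B WT, against 71.1, 71.4, 69.9 and 61.0 CPM with the empty vector (1.34 ± 0.11, adjusted p = 4.94e-09, and 0.68 ± 0.112, adjusted p = 6.47e-05). CDK6 was lower than with ARID1A WT in CBR (-0.99 ± 0.131, adjusted p = 5.49e-06) and delIDR1 (-1.17 ± 0.132, adjusted p = 1.32e-06). The cell cycle inhibitor gene CDKN1A was 1.46 ± 0.505 higher with ARID1A WT (adjusted p = 0.024), a value of 0.65 against empty vector replicates 1 and 2 and 3.68 against replicates 3 and 4, and its call was lost without either ARID1A WT library (adjusted p = 0.0773 and 0.11). ITGAL, an integrin gene of leukocytes, was lower with ARID1B WT (-3.92 ± 1.42, adjusted p = 0.0329), but overlapped the empty vector and was at -0.20 against its own pair (adjusted p = 0.942), and its call was also lost without empty vector replicate 1 (adjusted p = 0.0505) or 2 (adjusted p = 0.106). Lineage genes such as SPI1, CSF1R, MPO and GFI1B were below the filter.

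Genome neighbours of the RUNX genes were a list of 12, of which 8 were tested. With ARID1A WT 2 were higher and 2 lower, and with ARID1B WT 1 was higher and 2 lower, shares of 50% and 37.5% beside 44.5% and 43.1% of all tested genes. With ARID1A WT the count was 2 without ARID1A WT replicate 2 or in a fit of only the groups. With ARID1B WT it was 5 without empty vector replicate 4 and 7 against empty vector replicates 1 and 2. SUPT3H, the gene next to RUNX2 that runs the other way, had 11.2 and 11.3 CPM with ARID1A WT and 12.6 and 13.2 CPM with ARID1B WT, against 8.25, 7.69, 12.2 and 15.5 CPM with the empty vector (0.07 ± 0.184, adjusted p = 0.802, and 0.26 ± 0.181, adjusted p = 0.262). CDC5L, on the far side of SUPT3H, was not called either (0.16 ± 0.103, adjusted p = 0.233, and 0.25 ± 0.102, adjusted p = 0.0534). Empty vector replicates 1 and 2 were lower than replicates 3 and 4 in both genes (101 and 104 against 136 and 142 CPM in CDC5L). Against the own pair, ARID1A WT was higher in SUPT3H (0.50 ± 0.111, edgeR adjusted p = 0.000354) and CDC5L (0.39 ± 0.059, edgeR adjusted p = 2.97e-06). ARID1B WT against its own pair was called in neither (-0.11 ± 0.103, adjusted p = 0.404, and 0.05 ± 0.0587, adjusted p = 0.519). ENPP4, of the same chromosome region, was higher with ARID1A WT (8.61 and 11.2 against 4.72 to 6.39 CPM, 0.83 ± 0.126, adjusted p = 2.12e-05) and with ARID1B WT (11 and 10.7 CPM, 0.95 ± 0.125, adjusted p = 4.51e-06). CLIC5, which lies beside RUNX2 on its other side, had 10 reads over all libraries. SYF2, in the region of RUNX3, was lower with both (-0.66 ± 0.0849, adjusted p = 2.57e-06, and -0.48 ± 0.0839, adjusted p = 0.000117).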

How the data were processed

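RNA was read from 28 libraries of AN3CA cells. Per the submitters' processing notes, bcl2fastq, STAR 2.5.2b and Bowtie2 2.29 were used with build hg19, with no role given here for Bowtie2. The authors deposited whole-number read counts per gene in 3 forms, with strand ignored and for each strand. The counts opposite to the gene were used, which held most stranded reads in every library. Rows naming no gene (21.6 to 36.28% of reads) were left out.

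Counts were filtered on low values, which left 14220 of 26346 genes, scaled by TMM and fitted over all 13 groups with the edgeR 4.0.16 quasi-likelihood test (limma 3.58.1, R 4.3.3), with Benjamini-Hochberg adjustment and a threshold of 0.05. A standard error is the log2 fold change over the root of F. CPM uses the summed reads of the tested genes, scaled by the TMM factor of each library. A group with no read is set at 3 counts over the group, and the reads of the other group are taken as counted. Such bounds leave out the counting error of the other group and any other spread. Counting intervals cover counting error only. The scripts were tested on simulated data. DESeq2 1.42.0, other scaling, no filter, strand ignored, single groups, the replicate number as a block, left-out libraries and, chosen after seeing the data, each empty vector pair were alternatives.

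The members and gene lists were chosen with earlier results of these data known. Named are the members, ARID1A and ARID1B, up to 6 called genes of each list with the smallest p in each wild type against the empty vector, up to 4 between constructs, and the 5 genes most like each member. Some further list genes were named after their values were seen. Replicate numbers did not pair libraries. Tables and plots were made in Python 3.11.15 (matplotlib 3.10.9, scipy 1.17.1, numpy 2.4.6, pandas 2.3.3).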

Additional observations from a re-analysis of the deposited data

Results flagged for a closer look

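In the empty vector, 1 CDK6 library lay apart from the other 3, at 61.0 CPM against 69.9 to 71.4 CPM, a gap of 0.854 of the whole range, above the 95% critical value of Dixon for 4 samples. Such a gap arises by chance in about 5% of groups.

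RUNX2 reads on the strand of the gene itself, which the main measure does not use, averaged 1.71 CPM with ARID1A WT, 0.307 CPM with DBDmut and 0.0886 CPM with delIDR1, above the empty vector. Of all stranded RUNX2 reads, 91.1% with ARID1A WT, 92.5% with DBDmut and 92.0% with delIDR1 lay on the opposite strand, against 84.54 to 87.75% of all gene reads in the libraries of that strand set.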

How the results depend on the processing

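Of 3173 alternative values over 255 results, 2618 kept direction and side of the threshold, 28 changed sign with a call in neither fit (RUNX2 in 42YS against AQGscram ran from -1.16 to 0.15), 276 counts or values moved, 190 lost and 52 gained a call, and 9 changed sign with a call; the cause was not tested. Replicate numbers did not pair libraries (correlations of -0.132 to 0.119 over 78 group pairs), so the replicate block is no pairing. Replicates 3 and 4 exist only in the empty vector. Against the empty vector the block therefore rests on replicates 1 and 2 alone and is no separate check from that pair. CBFB reversed against empty vector replicates 3 and 4 for ARID1A WT (0.17), DBDmut (0.20) and AQGscram (0.23), and under the replicate block or against replicates 1 and 2 for the DDX4 hybrid (-0.22), 42YS (-0.22) and A457_G461del (-0.23). Under the block, or against replicates 1 and 2, CBFB in ARID1A WT was -0.47 (also against its own pair) and RUNX1 in ARID1B WT -2.12. Fitting only the groups compared gave -0.52 for CBFB in ARID1B WT, 6.75 for RUNX2 in Block13del and 2.91 for Block13del against Block9del. RUNX2 in Block9del was 2.32 with strand ignored and 3.97 under the block or with either empty vector pair; fitted RUNX2 folds against the empty vector depend on the prior count. Own pairs do not exist for the 5 constructs of strand set 3.

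Counts of called genes with ARID1A WT were 17 for cofactors and 6 for blood genes under the block, the own pair or replicates 1 and 2, 18 and 5 against replicates 3 and 4, and 7 and 1 (neighbours 2) in the fit of only the groups. With ARID1B WT cofactors gave 20 under the block and each pair and 8 with only the groups, blood genes 2 with only the groups, and neighbours 7 under the block or replicates 1 and 2. With only the groups, skeletal counts were 3 for delIDR1, 2 for the DDX4 hybrid, 0 for AQGscram, 3 for ARID1B WT, 5 for M2, 2 for A457_G461del, 1 for Block13del and 1 for Block9del. Under the block they were 7 for DBDmut (also with its own pair), 5 for AQGscram (also with each pair), 3 for 42YS (1 against replicates 3 and 4) and 5 for Block9del. Between constructs, M2 against ARID1B WT gave 5 with no filter or the block and 7 with only the groups, 42YS against AQGscram 5 and 1 (block, groups), A457_G461del against Block13del 6 and 5, A457_G461del against Block9del 5 under the block, and Block13del against Block9del 1 with no filter, the block or DESeq2.

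Leaving out 1 library gave log2 ranges of -1.79 to -0.07 for RUNX3 in ARID1A WT, 3.98 to 5.28 for RUNX2 in 42YS, 3.90 to 4.04 in Block9del, -3.18 to -0.93 for RUNX1 and -0.66 to -0.44 for CBFB in ARID1B WT, 1.23 to 1.98 for RUNX2 in A457_G461del against Block13del and 2.52 to 3.27 in Block13del against Block9del. Counts ran over 1 to 4 (blood) and 2 to 6 (neighbours) with ARID1A WT, 3 to 7 and 3 to 5 with ARID1B WT, and for skeletal genes 3 to 5 (DDX4 hybrid), 0 to 2 (42YS), 3 to 6 (ARID1B WT), 3 to 5 (Block9del), 3 to 4 (DBDmut against ARID1A WT), 1 to 2 (42YS against AQGscram) and 1 to 2 (A457_G461del against Block13del). Depth limits RUNX2 in AQGscram, 42YS and Block9del, and RUNX1 throughout.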
